A study of Mus musculus with 13 samples.

Results

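Cytochrome P450 genes of families 1 to 4 were followed in white (WAT) and brown (BAT) adipose tissue of male C57BL/6J mice. They were taken as all genes on the array whose symbol reads Cyp, a digit from 1 to 4, a lower-case letter and a number. That gave 75 genes of 19752 named on the array: 71 with such a symbol and 4 with a letter after the number that marks a gene copy (Cyp3a41b, Cyp4a12a, Cyp4a12b and Cyp4a30b). The mice carried Fv2E-PERK, a fusion of the endoplasmic reticulum stress kinase PERK with a domain that the ligand AP20187 dimerises, or were wild type. The 12 arrays with settled labels formed 5 groups. White fat came from untreated wild-type mice on 3 arrays, from vehicle-treated Fv2E-PERK mice on 2, and on 3 from Fv2E-PERK mice injected intraperitoneally with AP20187 at 100 ng/g. Brown fat came from Fv2E-PERK mice only, on 2 arrays with vehicle and 2 with the same dose of AP20187. Tissue was taken 12 h after the AP20187 injection. Both vehicle groups carried the transgene too, and no wild-type group received AP20187, so what the ligand does by itself and what it does through the kinase cannot be told apart. The labels write the transgene as mAP::Fv2E-PERK and do not spell out mAP, and their protocol speaks of muscles although the samples are labelled WAT or BAT. A 13th array is titled as BAT of a transgenic mouse with vehicle. Its tissue label says BAT too, but its source name says WAT, and it entered no group.

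Cytochrome P450 enzymes of these families are haem proteins of the endoplasmic reticulum that insert an oxygen atom into drugs, steroids, bile acids and fatty acids. They take their electrons from NADPH through P450 oxidoreductase, the product of Por. Many are made mainly in hepatocytes, under nuclear receptors such as CAR, PXR and PPAR alpha, while a smaller number serve other tissues, among them the fatty acid hydroxylases of family 4 and the arachidonic acid epoxygenases of the Cyp2j group.

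Slide 1 of 3 held the wild-type arrays together with WAT vehicle 1. Slide 2 held WAT vehicle 2, the 3 WAT AP20187 arrays and the 13th array, and slide 3 the 4 BAT arrays. A level is the log2 processed signal, less the array's own 75th percentile of it, so that 0 stands for that percentile. Adipoq, a fat cell hormone, lay between 8.25 and 9.46 on all 13 arrays, and Ucp1, which defines brown fat cells, at 9.87 to 10.63 on the BAT arrays, -7.23 to -3.41 on the WAT arrays and -4.57 on the array with contradictory labels. Spots flagged well above background made up 57.9% to 64.0% on wild-type and vehicle WAT arrays, 49.0% to 51.5% on WAT AP20187 arrays and 46.4% to 49.0% on BAT arrays, so a dim gene is lost sooner on the latter. On WAT AP20187 1, 2 and 3, 442, 422 and 197 of 24459 tested features lay 4 log2 or more below both other AP20187 arrays. The counts on wild type 1, 2 and 3 were 0, 2 and 0. A low value on 1 AP20187 array alone was therefore not read as a change.

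Detection split the 75 genes. A gene counts as detected on an array where its brightest probe was flagged well above background. By that flag 23 genes were detected on all 13 arrays, 43 on some of them and 9 on none (Cyp2b19, Cyp2c65, Cyp2g1, Cyp2j5, Cyp3a44, Cyp4a29, Cyp4f37, Cyp4f40 and Cyp4x1). Of family 1, 1 of 3 genes was detected on every array, of family 2 15 of 44, of family 3 0 of 8 and of family 4 7 of 20. A list of 43 P450 genes typical of liver had 39 on the array: 8 were among the 23, 29 among the 43 and 2 among the 9. Just inside the split lay Cyp2d26, at -3.10 on its dimmest array, and Cyp4a31, at -3.02. Just outside were 4 genes that missed 1 array each, namely Cyp2c70 (-3.69 on BAT vehicle 3), Cyp2d13 (-3.83 on WAT AP20187 1), Cyp2t4 (-3.75 on WAT AP20187 2) and Cyp4f18 (-6.27 on WAT AP20187 1). Since this flag made the split, tests were read only for the 23 genes, whose detection does not depend on the group, and the others are described by their levels. In all, 54 of the 75 genes passed the filter on dim probes, 31 of them genes detected on some arrays, and 21 did not pass.

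**Figure D1:**
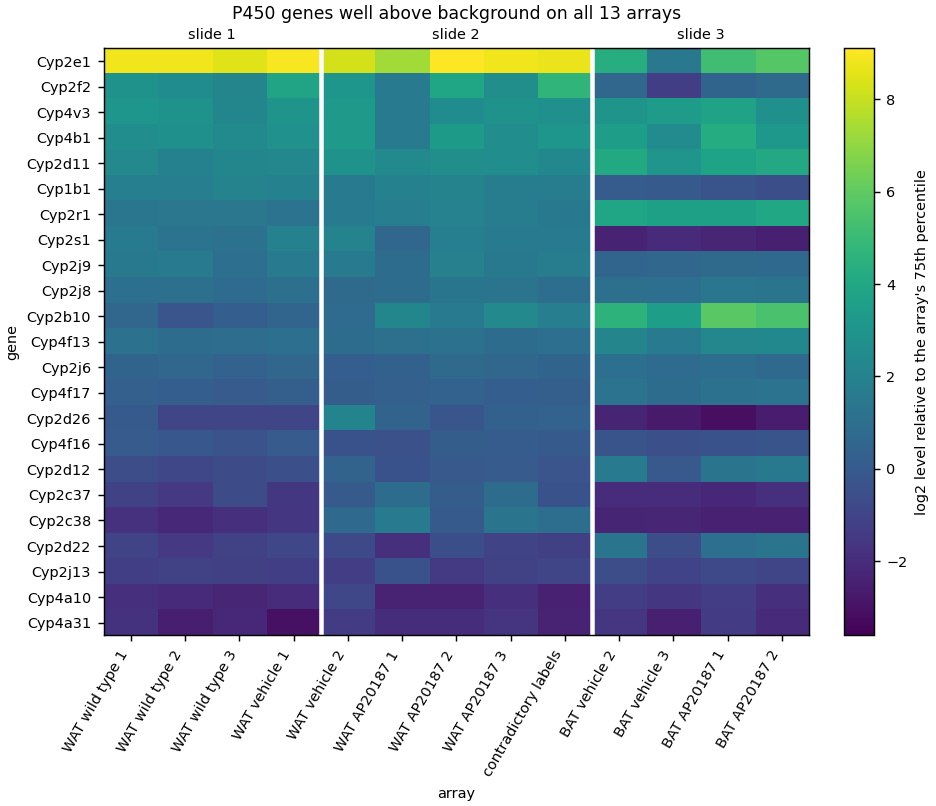
Log2 level of the 23 P450 genes detected on every array (rows) on each of the 13 arrays (columns), relative to the array's 75th percentile. White lines part the 3 slides, and colours compare arrays within a row, not genes with each other, since probes differ in brightness. Cyp2e1, Cyp2f2 and Cyp2s1 are darker on the BAT arrays of slide 3 and Cyp2b10 and Cyp2r1 brighter, while Cyp2c37 and Cyp2c38 follow slide 2.

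Of the enzymes that act on small foreign compounds, Cyp2e1, which oxidises ethanol and acetone, was far lower in brown than in white fat. In white fat its levels were 8.83, 8.84 and 8.48 in wild type, 8.95 and 8.30 with vehicle and 7.36, 9.07 and 8.85 after AP20187. In brown fat they were 4.31 and 1.51 with vehicle and 5.21 and 5.77 after AP20187. All WAT arrays lay above all BAT arrays, and BAT vehicle 3 was the lowest of all. BAT vehicle fell below WAT vehicle by 5.72 log2 (SE 0.84, n = 2 and 2, 52.6-fold, adjusted p = 0.00208). A second, dimmer probe of the gene gave -6.28. BAT vehicle 3 also had the lowest mean of 8 brown fat cell markers (6.06, against 6.38 to 7.50 on the other BAT arrays) and the highest of 8 skeletal muscle markers (5.21, against 1.0 to 4.49). Their part in the low value was not tested. In bulk tissue, fewer cells of a type and less RNA per cell cannot be told apart. Without BAT vehicle 3 the change was -4.32.

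Cyp2f2, known for activating naphthalene in airway cells, and Cyp2s1, an enzyme of epithelia, were lower in brown fat too. Cyp2f2 lay at 2.89, 2.60 and 2.20 in wild type, 3.81 and 3.07 with vehicle and 1.65, 3.85 and 2.65 after AP20187. On the BAT arrays it lay at 0.57 and -1.23 with vehicle and 0.49 and 0.80 after AP20187. No BAT array reached any WAT array, and it fell by 3.77 log2 (SE 0.74, adjusted p = 0.00731), with an adjusted p of 0.0521 when WAT vehicle 1, the higher vehicle array, was left out. Cyp2s1 measured 1.70, 1.26 and 1.14 in wild type, 1.97 and 2.07 with vehicle and 0.59, 1.89 and 1.58 after AP20187. In BAT it measured -2.36 and -2.05 with vehicle and -2.24 and -2.49 after AP20187, which also left no overlap, and it fell by 4.23 log2 (SE 0.39, adjusted p = 3.44e-04).

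Cyp1b1, which oxidises oestrogens and is a target of the aryl hydrocarbon receptor, was even across white fat, at 1.88, 1.85 and 2.06 in wild type, 1.99 and 1.58 with vehicle and 1.96, 2.08 and 1.74 after AP20187. It was lower in brown fat, at 0.09 and -0.00 with vehicle and -0.29 and -0.53 after AP20187, with no overlap between the tissues. The log2 change from WAT vehicle to BAT vehicle was -1.75 (SE 0.21, 3.36-fold, adjusted p = 8.69e-04).

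Cyp2b10, the phenobarbital-inducible P450 of mouse liver and a target of CAR, ran the other way. In white fat it measured 0.60, -0.27 and 0.21 in wild type, 0.52 and 0.82 with vehicle and 2.22, 1.68 and 2.39 after AP20187. In brown fat it measured 4.60 and 3.54 with vehicle and 5.83 and 5.45 after AP20187, above every WAT array. It rose by 3.40 log2 from WAT vehicle to BAT vehicle (SE 0.41, 10.6-fold, adjusted p = 9.74e-04). Its close relative Cyp2b9, on the list of liver-typical genes, was detected on all 4 BAT arrays, at -1.52 and -3.02 with vehicle and 0.10 and -0.58 after AP20187. It was detected on no wild-type array, but in white fat it was on WAT vehicle 2 (-4.30) and on AP20187 1 and 3 (-2.72 and -2.16). Those AP20187 arrays lay above BAT vehicle 3, so the tissues overlapped. The sequences of the probes are not in the files, so signal shared between near-identical P450 genes cannot be set apart.

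Cyp2r1, the 25-hydroxylase that activates vitamin D, gave 1.40, 1.46 and 1.44 in wild type, 1.22 and 1.64 with vehicle and 1.82, 2.02 and 1.76 after AP20187. On the BAT arrays it gave 3.93 and 3.64 with vehicle and 3.61 and 3.96 after AP20187, all above WAT, a rise of 2.35 log2 (SE 0.21, adjusted p = 3.07e-04). Its probes disagreed. The dimmer probe, also detected on every array, had a BAT vehicle mean 0.55 log2 below WAT vehicle (a difference of -0.55), and with the mean of both probes the rise was 0.90. Such a pair was available for 3 of the 23 genes: for Cyp2e1 both probes fell, and for Cyp2j6 the brighter probe differed by 0.58 and the dimmer by -0.05.

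The studied members of the Cyp2j group turn arachidonic acid into epoxides, and 4 of them were detected on every array. Cyp2j8 lay at 1.03, 1.07 and 0.85 in wild type, 1.08 and 0.79 with vehicle and 0.91, 1.36 and 1.26 after AP20187. In BAT it lay at 1.07 and 1.01 with vehicle and 1.39 and 1.28 after AP20187, within the range of white fat or just above it. Cyp2j6 measured 0.49, 0.61 and 0.40 in wild type, 0.57 and 0.19 with vehicle and 0.33, 0.77 and 0.60 after AP20187, and 1.06 and 0.84 with vehicle and 0.99 and 0.75 after AP20187 in BAT. Neither passed between the tissues: the log2 change was 0.11 (SE 0.20, adjusted p = 0.754) for Cyp2j8 and 0.58 (SE 0.22, adjusted p = 0.088) for Cyp2j6. Cyp2j9 was lower on each BAT array than on any WAT array, at 0.53 and 0.58 with vehicle and 0.79 and 0.73 after AP20187 against 1.55, 1.67 and 1.06 in wild type, 1.56 and 1.59 with vehicle and 0.88, 1.91 and 1.55 after AP20187. Its log2 change of -1.02 (SE 0.32) had an adjusted p of 0.0507. Cyp2j13 was flat at -1.25, -1.17 and -1.19 in wild type, -1.26 and -1.32 with vehicle and -0.39, -1.43 and -1.10 after AP20187, except for WAT AP20187 1, and measured -0.60 and -1.06 with vehicle and -0.80 and -0.95 after AP20187 in BAT. The adjusted p for that difference of 0.46 (SE 0.31) was 0.325.

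Among the fatty acid hydroxylases of family 4, Cyp4f13 and Cyp4f17, of the subfamily that hydroxylates leukotrienes and long fatty acids at their end, were higher in brown fat by small amounts. Cyp4f13 measured 1.15, 0.90 and 0.96 in wild type, 1.03 and 0.91 with vehicle and 1.1, 1.14 and 0.89 after AP20187. In BAT it measured 2.20 and 1.66 with vehicle and 2.29 and 2.33 after AP20187. Cyp4f17 measured 0.29, 0.19 and 0.05 in wild type, 0.25 and 0.14 with vehicle and 0.28, 0.39 and 0.20 after AP20187, and 1.24 and 0.91 with vehicle and 1.20 and 1.25 after AP20187 in BAT. For both genes every BAT array lay above every WAT array. They rose by 0.96 log2 (SE 0.21, adjusted p = 0.0123) and 0.88 log2 (SE 0.18, adjusted p = 0.00855) between the vehicle groups. With the authors' value table the changes were 0.16 and 0.08, where the median of all features moved to -0.60. The calls also went without WAT vehicle 2 and without BAT vehicle 2. Of 25 settings, the main one included, 21 had an adjusted p under 0.05 for each gene.

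Cyp4f16, of the same subfamily, showed no such step, at 0.07, -0.17 and -0.34 in wild type, 0.04 and -0.38 with vehicle and -0.46, 0.15 and 0.07 after AP20187 in WAT and -0.30 and -0.48 with vehicle and -0.42 and -0.29 after AP20187 in BAT (log2 change -0.22, SE 0.26, adjusted p = 0.589). Cyp4v3, an end-chain hydroxylase of fatty acids, lay at 3.08, 2.92 and 2.23 in wild type, 2.95 and 3.26 with vehicle and 1.62, 2.58 and 2.93 after AP20187. Its BAT levels of 2.98 and 3.35 with vehicle and 3.71 and 2.77 after AP20187 overlapped these. Cyp4b1, an extrahepatic hydroxylase of fatty acids, lay at 2.64, 2.76 and 2.45 in wild type, 2.80 and 3.27 with vehicle and 1.62, 3.34 and 2.61 after AP20187. In BAT it lay at 3.45 and 2.51 with vehicle and 4.28 and 3.16 after AP20187, again overlapping. WAT AP20187 1 was the lowest array for both genes. The tissue difference was 0.06 (SE 0.48, adjusted p = 0.945) for Cyp4v3 and -0.06 (SE 0.57, adjusted p = 0.96) for Cyp4b1.

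Cyp4a10 and Cyp4a31, of the PPAR alpha-driven group that hydroxylates medium-chain fatty acids, were dim. Cyp4a10 measured -1.83, -2.11 and -2.21 in wild type, -2.0 and -0.91 with vehicle and -2.35, -2.41 and -1.83 after AP20187, and -1.32 and -1.57 with vehicle and -1.29 and -1.91 after AP20187 in BAT. WAT vehicle 2 was its highest array. Cyp4a31 measured -1.72, -2.54 and -2.18 in wild type, -3.02 and -1.35 with vehicle and -1.94, -1.92 and -1.65 after AP20187, and -1.61 and -2.51 with vehicle and -1.33 and -2.06 after AP20187 in BAT. The tissues overlapped for both, with log2 changes of 0.01 (SE 0.38, adjusted p = 0.986) and 0.13 (SE 0.54, adjusted p = 0.9). Other probes of these genes were dimmer and were detected on 8 arrays at most.

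Of the Cyp2d group, to which the human drug-metabolising CYP2D6 belongs, 4 genes were detected on every array. Cyp2d11 measured 2.40, 1.98 and 2.22 in wild type, 2.26 and 2.85 with vehicle and 2.43, 2.67 and 2.65 after AP20187, and in BAT 4.11 and 3.01 with vehicle and 3.75 and 4.04 after AP20187. Cyp2d12 measured -0.60, -0.89 and -0.68 in wild type, -0.50 and 0.43 with vehicle and -0.42, -0.05 and 0.05 after AP20187, and in BAT 1.59 and -0.08 with vehicle and 1.30 and 1.55 after AP20187. For Cyp2d22 the levels were -1.01, -1.49 and -1.15 in wild type, -0.90 and -0.80 with vehicle and -1.87, -0.56 and -1.0 after AP20187, and in BAT 1.27 and -0.58 with vehicle and 1.02 and 1.28 after AP20187. In all 3 genes BAT vehicle 2 and both BAT AP20187 arrays lay above every WAT array. BAT vehicle 3 was the lowest BAT array, above every WAT array for Cyp2d11 and overlapping the WAT arrays for Cyp2d12 and Cyp2d22. The differences of 1.0, 0.79 and 1.20 did not pass (SE 0.35, 0.50 and 0.58, adjusted p = 0.0727, 0.291 and 0.17).

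Cyp2d26 behaved unlike them, at -0.02, -0.93 and -0.96 in wild type, -0.95 and 2.14 with vehicle and 0.47, -0.19 and 0.37 after AP20187. In BAT it measured -2.29 and -2.70 with vehicle and -3.10 and -2.60 after AP20187, below every WAT array. WAT vehicle 2 stood far above the rest. The fall of 3.09 log2 (SE 0.82, adjusted p = 0.0265) came to -1.54 without that array, where the call went. It also went without BAT vehicle 2, without BAT vehicle 3, with normexp and quantile scaling (adjusted p = 0.0541) and with only the 4 compared arrays (0.123). Of 25 settings, the main one included, 18 had an adjusted p under 0.05.

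Between the vehicle groups, 4 of the 23 genes were thus called higher in BAT (Cyp2b10, Cyp2r1, Cyp4f13 and Cyp4f17) and 5 lower (Cyp1b1, Cyp2d26, Cyp2e1, Cyp2f2 and Cyp2s1). Of all 24459 features 14.3% were called higher and 9.17% lower. Both BAT vehicle arrays lay above both WAT vehicle arrays for 8 of the 23 genes and below them for 8, beside 39% and 30% of all features. The median change of the 23 genes was 0.06 log2, beside 0.11 over all features. The BAT arrays had a slide of their own, so tissue and slide cannot be told apart in any of these values. The labels do not say that arrays came from separate animals, so the p-values measure the spread between arrays.

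**Figure D2:**
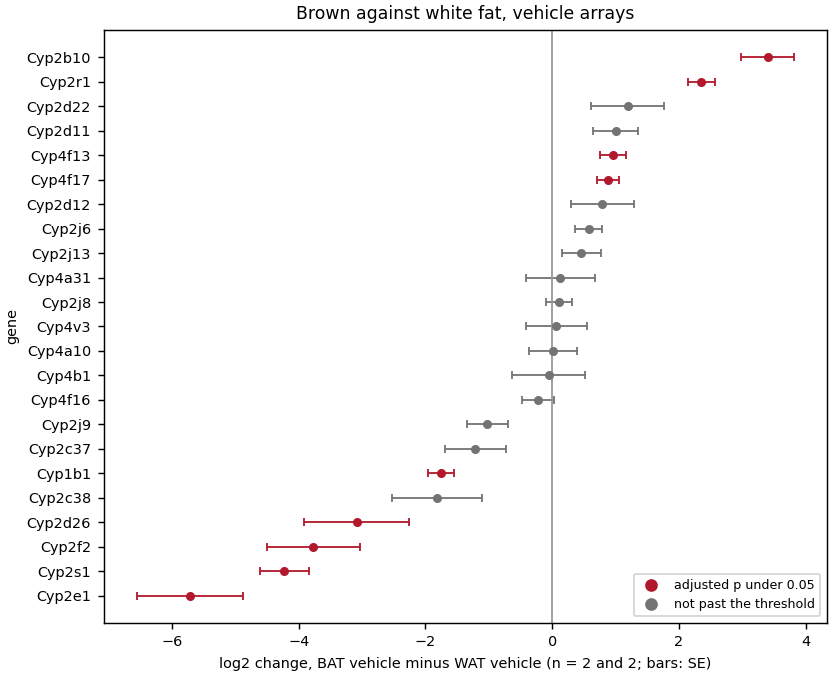
Log2 change (horizontal axis) of the 23 P450 genes detected on every array, BAT vehicle minus WAT vehicle, 2 arrays each, with bars of 1 SE from limma. Red points have an adjusted p under 0.05. Cyp2b10 lies farthest right at 3.40 and Cyp2e1 farthest left at -5.72.

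The study asked what AP20187 changed in fat of Fv2E-PERK mice. In white fat, 0 of the 23 P450 genes were called in either direction against vehicle, where 1.75% of all features were called higher and 0.491% lower. At an unadjusted p under 0.05 there were 2 of 23, beside 22.3% of all features. These were Cyp2b10 and Cyp2c37. For Cyp2b10 the 3 AP20187 arrays (2.22, 1.68 and 2.39) lay above both vehicle arrays (0.52 and 0.82) (log2 change 1.42, SE 0.38, 2.68-fold, adjusted p = 0.0795). Every slide 2 array (0.82 to 2.39) also lay above every slide 1 array (-0.27 to 0.60). The array with contradictory labels, on slide 2, lay at 1.83, above AP20187 2. The adjusted p was 0.0361 without a filter on dim probes, 0.0438 with the stricter filter and 0.047 with slide as a random block, and ranged up to 0.685 over the settings tried. In the first 3 of these settings 14.8%, 7.74% and 5.66% of all features were called.

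Cyp2c37 and Cyp2c38 belong to the Cyp2c group of epoxygenases and hydroxylases of arachidonic acid. Cyp2c37 measured -1.10, -1.47 and -0.71 in wild type, -1.54 and -0.02 with vehicle and 0.89, 0.13 and 0.90 after AP20187. In BAT it measured -2.0 and -1.98 with vehicle and -2.21 and -1.91 after AP20187. Cyp2c38 measured -1.78, -2.12 and -1.83 in wild type, -1.61 and 0.73 with vehicle and 1.61, 0.02 and 1.29 after AP20187, and -2.29 and -2.23 with vehicle and -2.43 and -2.43 after AP20187 in BAT. All slide 2 arrays lay above all slide 1 arrays for both genes. Among the 23 genes this held for 4 of the 8 liver-typical ones, Cyp2b10 and Cyp2d12 being the others, and for 1 more, Cyp2r1. Of all features 8.66% parted so. For Cyp2c37 the change from vehicle to AP20187 in WAT was 1.42 log2 (SE 0.44, adjusted p = 0.113) and for Cyp2c38 1.41 (SE 0.64, adjusted p = 0.238). Against WAT vehicle 2 alone, the vehicle array of slide 2, the mean differences were 0.66 for Cyp2c37 and 0.24 for Cyp2c38. Between the tissues neither passed, with log2 changes of -1.21 (SE 0.48, adjusted p = 0.104) and -1.82 (SE 0.71, adjusted p = 0.0962). Each has another probe, detected on 5 arrays for Cyp2c37 and on none for Cyp2c38.

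The third smallest p in white fat was that of Cyp2r1, with a log2 change of 0.44 (SE 0.19, adjusted p = 0.227), 1.82, 2.02 and 1.76 after AP20187 being above both vehicle arrays. For this gene too every slide 2 array (1.55 to 2.02) lay above every slide 1 array (1.22 to 1.46). The 23 changes had a median of 0.07 log2 (0.15 over all features), with 13 positive and 10 negative. All AP20187 arrays lay above both vehicle arrays for 3 of the 23 genes and below them for 2, beside 26.2% and 12.3% of all features. Scaled to the probes above background on each of the 12 arrays, that median was -0.23 and that of all features -0.16.

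In brown fat 0 of the 23 genes were called after AP20187, where 0.00818% of features (2 genes or probes) were called higher and 0 lower. At an unadjusted p under 0.05 there were 2, beside 7.37% of all features. Cyp2b10 was higher on both AP20187 arrays (5.83 and 5.45) than on either vehicle array (4.60 and 3.54), a log2 change of 1.57 (SE 0.41, 2.97-fold, adjusted p = 0.367). Cyp2e1 was also higher on both, with a log2 change of 2.58 (SE 0.84, adjusted p = 0.499), which came to 1.19 without BAT vehicle 3. For Cyp1b1, with the third smallest p, the change was -0.45 (SE 0.21, adjusted p = 0.698). Both AP20187 arrays lay above both vehicle arrays for 5 of the 23 genes and below them for 2, beside 15.8% and 21.6% of all features.

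The test of whether the response differed between the tissues called 0 of the 23 genes and 0 of all features, with an unadjusted p under 0.05 for 2 genes and 16.5% of features. The smallest p was that of Cyp2e1, at a log2 difference of -2.78 for WAT minus BAT (SE 1.14, adjusted p = 0.275), followed by Cyp2c37 (1.49, SE 0.65, adjusted p = 0.302) and Cyp1b1 (0.58, SE 0.28, adjusted p = 0.343).

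Against untreated wild type, WAT with vehicle had 0 of the 23 genes called, where 0.0245% of features were called higher and 0 lower. An unadjusted p under 0.05 was found for 1 gene and 5.02% of features. Cyp2c38 had the smallest p (log2 change 1.47, SE 0.64, adjusted p = 0.986), then Cyp2s1 (0.66, SE 0.36, adjusted p = 1) and Cyp4a10 (0.60, SE 0.34, adjusted p = 1). WAT with AP20187 had 3 of 23 called higher than wild type and 0 lower, beside 7.2% and 1.66% of all features. These were Cyp2b10 (log2 change 1.91, SE 0.34, adjusted p = 0.0267), Cyp2c38 (2.88, SE 0.58, adjusted p = 0.0287) and Cyp2c37 (1.74, SE 0.39, adjusted p = 0.0347). Each had all 3 AP20187 arrays above all 3 wild-type arrays, which was so for 6 of the 23 genes and for 27.2% of all features. With the mean of a gene's probes in place of the brightest, the change of Cyp2c37 was 3.20. The other probe in that mean lay at background on the wild-type arrays (-6.34, -6.82 and -6.89), so the size of 3.20 is not read.

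All wild-type arrays lay on slide 1 and all WAT AP20187 arrays on slide 2, with a vehicle array on each. With slide as a fixed block the changes were 1.61 for Cyp2b10, 0.54 for Cyp2c38 and 0.22 for Cyp2c37, with adjusted p from 0.938 to 0.968, and 0 of all features were called. Leaving out wild type 1, 2 or 3 or AP20187 2 ended the 3 calls (adjusted p from 0.0559 to 0.119). Without AP20187 3, Cyp2b10 alone was called, beside 5.03% of all features.

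Among the genes detected on some arrays only, many liver-typical P450 genes varied with the array and slide. On slide 1, 23 to 30 of the 39 measured were detected, on slide 2 27 to 36, and on the BAT arrays 10 or 11. WAT vehicle 2 had the most, with 36. For 18 of the 39 every slide 2 array lay above every slide 1 array, while the other members of the list did not part that way. Of the 24459 tested features 8.66% parted so. That share is over features past the filter on dim probes, which 30 of the 39 passed, so these shares do not cover like sets. In 16 of the 29 detected on some arrays WAT vehicle 2 was the highest of all arrays. The mean level of the list was -4.01 to -3.14 on slide 1 and -2.29 to -0.90 on slide 2. On the BAT arrays it was -4.34 to -3.84, where most values lay at background and hold no order.

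**Figure D3:**
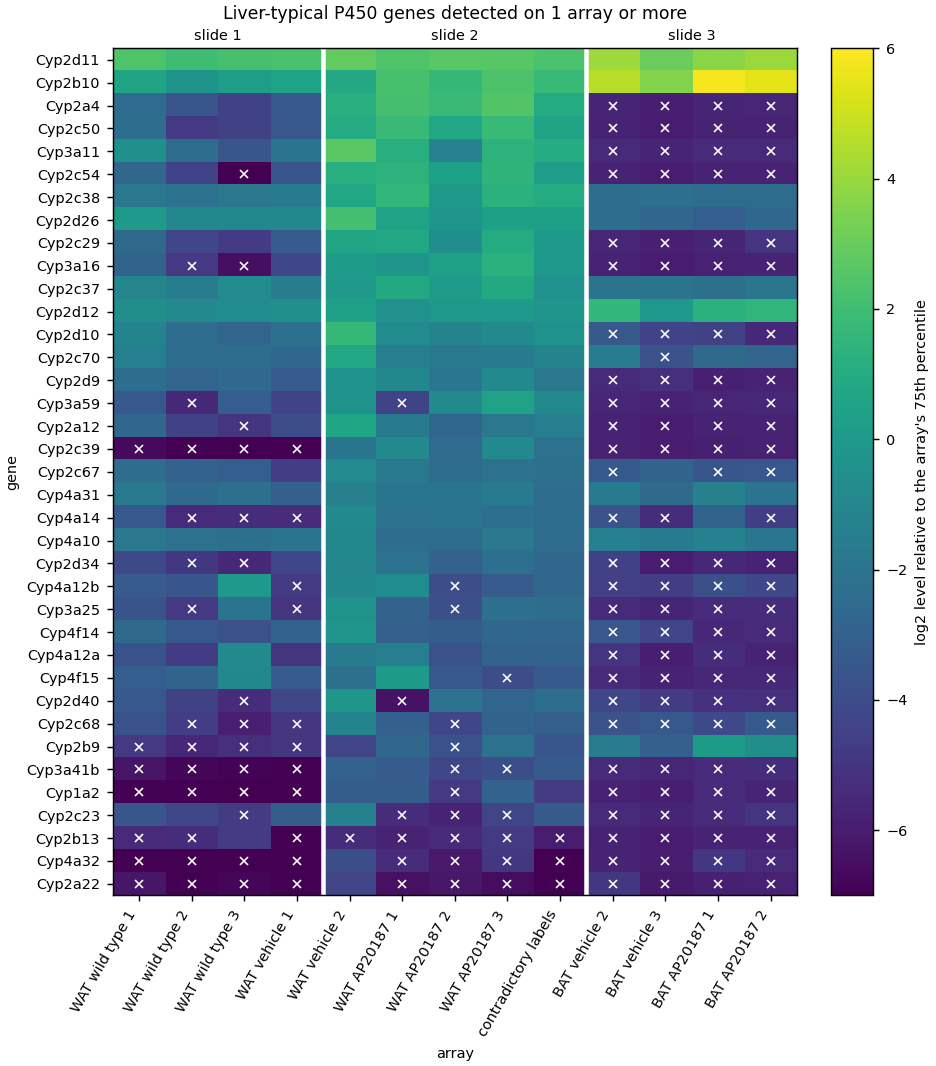
Log2 level of the 37 liver-typical P450 genes detected on 1 array or more (rows) on each of the 13 arrays (columns), parted into the 3 slides by white lines. Crosses mark arrays where the gene was not well above background, and colours compare arrays within a row. The 10 or 11 genes without a cross on a BAT array include Cyp2d11 and Cyp2b10, and most rows are brighter on slide 2 than on slide 1.

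Cyp2c54 measured -2.69, -4.38 and -7.22 in wild-type WAT and -3.51 and 1.14 with vehicle, the lowest of these not being well above background. After AP20187 it measured 1.39, 0.46 and 1.44, and it was not detected in BAT. Cyp2a4, a testosterone 15-alpha hydroxylase, was similar, at -2.46, -3.54 and -4.41 in wild type, -3.37 and 1.19 with vehicle and 2.17, 1.76 and 2.47 after AP20187. In both genes the vehicle array of slide 1 lay among the wild-type arrays and that of slide 2 beside the AP20187 arrays.

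Cyp2c50 gave -2.31, -4.79 and -4.46 in wild type, -3.44 and 0.99 with vehicle and 1.75, 0.76 and 1.74 after AP20187. Cyp2c29, an epoxygenase of mouse liver, gave -2.52, -4.25 and -4.69, then -3.20 and 0.71, then 0.77, -0.51 and 0.99 in the same order. Cyp3a16 gave -2.84, -4.85 and -6.48, then -4.25 and 0.15, then -0.23, 0.42 and 1.30. Each of these 3 genes thus parted by slide with no overlap, and none was detected in BAT.

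Cyp3a11, the main CYP3A enzyme of mouse liver, gave -0.49, -2.34 and -3.50 in wild type, -2.02 and 2.70 with vehicle and 1.13, -1.25 and 1.42 after AP20187. Cyp2d10 gave -1.13, -2.36 and -2.78, then -2.18 and 1.67, then -0.72, -1.18 and -0.78. Cyp2a12 gave -2.70, -4.44 and -4.99, then -3.87 and 0.66, then -1.61, -2.64 and -1.83. In these genes WAT vehicle 2 was the highest array. In BAT none was detected, so WAT vehicle was at least 15.4-fold above BAT vehicle for Cyp3a11, at least 9.78-fold for Cyp2d10 and at least 4.01-fold for Cyp2a12. WAT vehicle 2 carried these bounds: with WAT vehicle 1 alone they were at least 3.0-fold for Cyp3a11 and at least 2.58-fold for Cyp2d10, and Cyp2a12 had none. In white fat, Cyp2c54 and Cyp2a12 were not well above background on wild type 3 nor Cyp3a16 on wild type 2 and 3, so these values have no order among themselves. These bounds set the brighter mean against, on each array, the higher of the gene's own signal and the lowest signal flagged well above background.

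Markers of hepatocytes moved over the same arrays. The mean of 19 measured markers was -2.03 to -0.24 on slide 1, -0.23 to 2.65 on slide 2 with the highest on WAT vehicle 2, and -4.16 to -3.56 on the BAT arrays. Of these 19, 17 to 19 were detected on slide 1 arrays, 16 to 19 on slide 2 and 5 to 7 in BAT. Alb, the albumin gene, measured 2.46, 0.47 and -0.04 in wild type, 1.91 and 5.82 with vehicle, 2.45, 0.95 and -6.08 after AP20187 and 3.74 on the array with contradictory labels. Its drop on AP20187 3 was not shared by Ahsg (1.92) or Ambp (2.31). The part of liver RNA in the P450 levels was not tested.

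**Figure D4:**
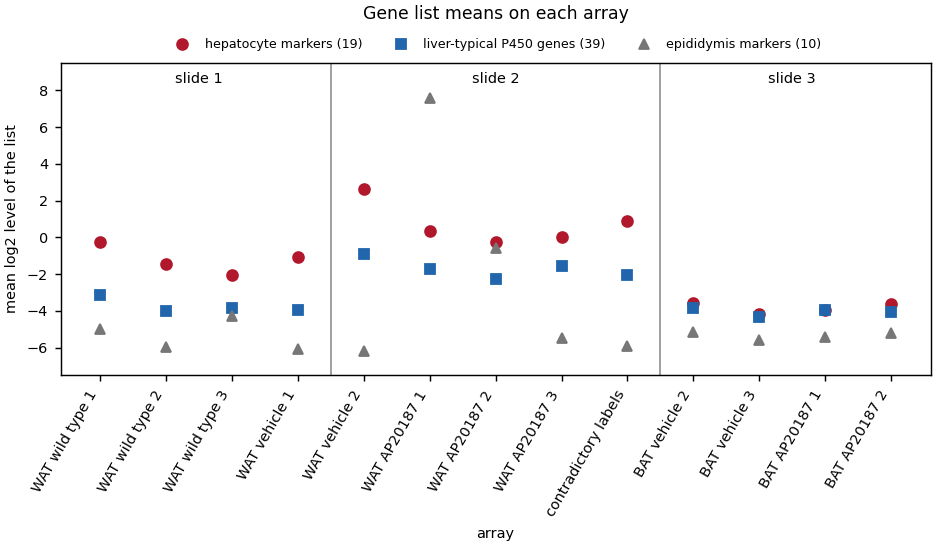
Mean log2 level (vertical axis) of the liver-typical P450 genes, of hepatocyte markers and of epididymis markers on each array (horizontal axis), grouped by slide. The hepatocyte and P450 means are both highest on WAT vehicle 2, at 2.65 and -0.90, and the epididymis mean stands out on WAT AP20187 1, at 7.60.

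Within slide 2 the P450 genes did not all keep the order of the hepatocyte markers. Of 14 hepatocyte markers detected on its 5 arrays, 13 were lower on each AP20187 array than on WAT vehicle 2 and 1, Apoc3, was mixed. Their median difference was -2.19 log2. Of 24 liver-typical P450 genes detected there, 14 were lower on each AP20187 array, 3 were higher on each and 7 were mixed, with a median difference of -0.71. Of the 17806 features detected on these 5 arrays 13.8% were lower on each AP20187 array and 40.5% higher on each. The 3 higher genes were Cyp2b10 (0.85 to 1.57 above WAT vehicle 2), Cyp2a4 (0.57 to 1.28) and Cyp2c37 (0.14 to 0.92). At the other end were Cyp4f14 (-2.96 to -2.44), Cyp2a12 (-3.30 to -2.27), Cyp2d10 (-2.84 to -2.39) and Cyp2c70 (-2.49 to -2.18). A single vehicle array stands behind these differences, so no test was made.

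**Figure D5:**
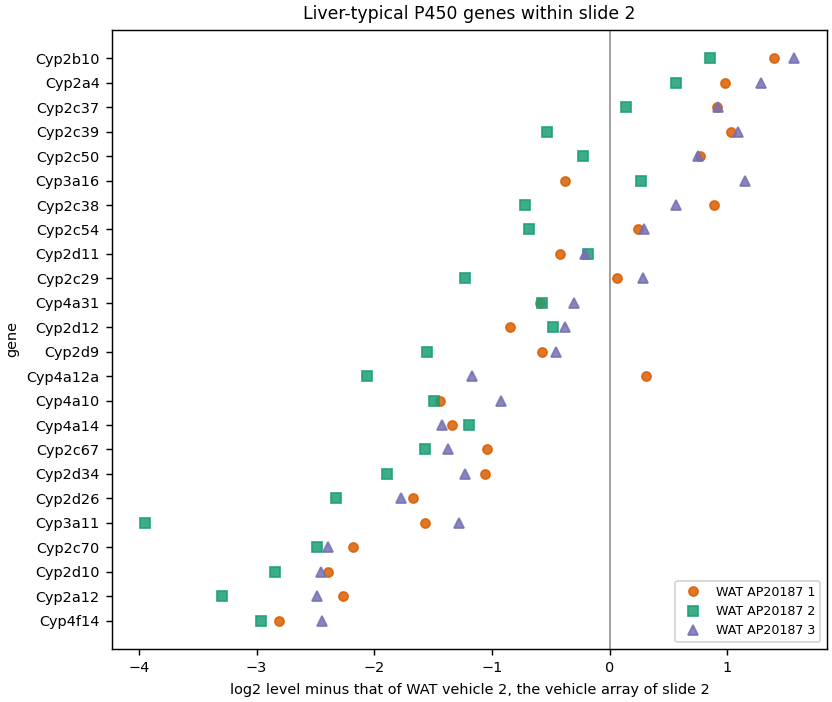
Log2 level on each of the 3 WAT AP20187 arrays minus that on WAT vehicle 2 (horizontal axis) for the 24 liver-typical P450 genes detected on all 5 arrays of slide 2. Cyp2b10, Cyp2a4 and Cyp2c37 have all 3 points right of 0, 14 genes have all 3 left of it, and Cyp3a11 has its lowest point, on AP20187 2, at -3.95.

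The promoters of 6 genes are shown because they stand for both classes of detection: Cyp2e1 and Cyp2b10, detected on every array, and Cyp2a4, Cyp2c70, Cyp3a11 and Cyp3a16, liver-typical genes detected on some arrays and picked from the 7 of that class that hold the motif CAAAGTCC. Of these Cyp2c70 missed BAT vehicle 3 alone, and the other 3 were not detected in BAT. Each line gives the 250 bases before the gene's start, 5′ to 3′ on the gene's strand, from RefSeq on GRCm38.p6. Capitals mark matches, on either strand, to 6 motifs: TATAAA (core of the TATA box), GCGTG (core bound by the aryl hydrocarbon receptor), AGGTCA (nuclear receptor half-site), GTTAAT (HNF1 half-site), CAAAGTCC (core bound by HNF4) and TGATGNAAT (bound by ATF4 with C/EBP). Positions are counted back from the base before the start.
Cyp2e1: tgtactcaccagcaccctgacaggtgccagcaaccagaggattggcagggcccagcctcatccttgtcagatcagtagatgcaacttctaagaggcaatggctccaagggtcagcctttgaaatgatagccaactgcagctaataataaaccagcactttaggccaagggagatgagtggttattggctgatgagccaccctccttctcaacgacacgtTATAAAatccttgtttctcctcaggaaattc
Cyp2b10: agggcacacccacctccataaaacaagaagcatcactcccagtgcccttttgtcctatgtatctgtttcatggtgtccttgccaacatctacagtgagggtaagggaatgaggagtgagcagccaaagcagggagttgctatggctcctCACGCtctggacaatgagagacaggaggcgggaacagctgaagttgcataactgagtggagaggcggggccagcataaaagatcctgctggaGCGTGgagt
Cyp2a4: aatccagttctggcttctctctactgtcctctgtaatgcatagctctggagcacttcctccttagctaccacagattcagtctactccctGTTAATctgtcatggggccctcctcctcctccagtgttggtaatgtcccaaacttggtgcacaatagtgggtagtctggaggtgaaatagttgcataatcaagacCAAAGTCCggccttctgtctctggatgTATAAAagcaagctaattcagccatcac
Cyp2c70: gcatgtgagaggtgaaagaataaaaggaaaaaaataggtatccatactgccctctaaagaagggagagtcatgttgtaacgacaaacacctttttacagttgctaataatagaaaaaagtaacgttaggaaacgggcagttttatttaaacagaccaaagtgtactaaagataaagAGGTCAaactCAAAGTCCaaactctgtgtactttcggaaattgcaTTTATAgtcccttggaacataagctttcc
Cyp3a11: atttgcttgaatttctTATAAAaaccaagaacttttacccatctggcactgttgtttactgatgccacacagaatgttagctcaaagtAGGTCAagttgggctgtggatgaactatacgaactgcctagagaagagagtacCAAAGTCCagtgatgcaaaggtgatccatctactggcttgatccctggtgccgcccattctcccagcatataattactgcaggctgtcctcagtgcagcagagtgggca
Cyp3a16: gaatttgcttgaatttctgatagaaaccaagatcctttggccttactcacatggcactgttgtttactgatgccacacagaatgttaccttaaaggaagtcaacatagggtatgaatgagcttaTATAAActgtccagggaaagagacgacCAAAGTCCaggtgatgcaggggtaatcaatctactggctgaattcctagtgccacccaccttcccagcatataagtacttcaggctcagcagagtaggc
The stretches lie upstream of the transcribed part, at chr7:140763569-140763818 on the plus strand for Cyp2e1, chr7:25897408-25897657 on the plus strand for Cyp2b10, chr7:26306942-26307191 on the plus strand for Cyp2a4. The others lie at chr19:40187287-40187536 on the minus strand for Cyp2c70, chr5:145879855-145880104 on the minus strand for Cyp3a11 and chr5:145469724-145469973 on the minus strand for Cyp3a16. CAAAGTCC lay at 55 to 48 bases before the start in Cyp2a4, 64 to 57 in Cyp2c70, 109 to 102 in Cyp3a11 and 99 to 92 in Cyp3a16. Of 60 genes of the 75 that had a promoter in the table, 10 held it, against 1.22% of 27025 promoters, counted in all of them over the same 250 bases. It was in 7 of 23 promoters of liver-typical genes detected on some arrays and in 0 of 18 of genes detected on every array. TATAAA was in 14 and 4 of these, against 13% of all promoters. In the promoters shown it lay at 31 to 26 bases before the start in Cyp2e1, 28 to 23 in Cyp2a4 and 29 to 24 in Cyp2c70. In Cyp3a11 and Cyp3a16 it lay farther off, at 234 to 229 and 126 to 121. Among the 60, AGGTCA was in 16 (13.8% of all promoters), GTTAAT in 6 (6.52%), GCGTG in 11 (28.2%) and TGATGNAAT in 0 (0.825%). Neighbouring Cyp2c and Cyp3a genes are copies of each other and share promoter sequence, so they are not independent cases. A match only says that the letters are there.

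The genes lie in runs of neighbours, by their order in RefSeq, and the runs mixed the patterns. Of the 14-gene Cyp2c run 2 were detected on every array (Cyp2c37 and Cyp2c38), 9 on some, 1 on none, and 2 had no probe. In the 8-gene Cyp3a run none was detected on every array. In the 7-gene Cyp2j run 4 were, and in the 4-gene run of Cyp2s1, Cyp2b10, Cyp2b13 and Cyp2b9 2 were.

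Other genes detected on some arrays had patterns of their own. Cyp1a1, the classical target of the aryl hydrocarbon receptor, lay at 0.22 and -3.58 with vehicle and -1.21 and -1.02 after AP20187 in BAT. In WAT it lay at -4.38, -4.72 and -3.85 in wild type, -6.50 and -7.18 with vehicle and -2.89, -3.27 and -4.95 after AP20187. It was detected on all BAT arrays but BAT vehicle 3. In WAT it was well above background on the wild-type arrays and on AP20187 1 and 2 only. Both vehicle values in WAT thus lay at background, and no size of change from them is given. The groups with and without AP20187 overlapped in BAT. Cyp4f18, which inactivates leukotriene B4 in neutrophils, measured -0.23 to 2.0 on 12 arrays and -6.27 on WAT AP20187 1, where it was 7.34 log2 below the lower of the other AP20187 arrays. It was the only P450 gene with such a gap of 4 log2 or more among the AP20187 or wild-type arrays. Csf1r, a macrophage gene, was likewise low on that array (-0.97, against 3.49 to 6.10 on the other arrays), and the mean of 7 macrophage markers was 1.25 there and 2.08 to 3.22 on the other WAT arrays. On the BAT arrays, where Cyp4f18 was not that low, the macrophage mean was 0.80 to 1.88. The mean of 8 endothelial markers was also low on WAT AP20187 1, at 0.84 against 2.35 to 2.85 on the other arrays. The part of these cell types in the low value was not tested.

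A further set stood out on wild type 3 and WAT AP20187 1. Cyp4a12a, of the androgen-dependent P450 genes of male mouse kidney, measured -0.82 and -1.39 there. Its copy Cyp4a12b measured 0.04 and -0.69, and Cyp4f15 -0.94 and 0.09. On WAT vehicle 2 the 3 genes measured -1.70, -0.91 and -2.21, and on the other arrays they stayed at or below -2.73. The mean of 10 epididymis markers was 7.60 on WAT AP20187 1, where 7 of them had a value, -0.57 on AP20187 2, -4.30 on wild type 3 and -6.18 to -5.00 on the other arrays. On wild type 3 the epididymal Crisp1 (6.68, against -0.41 and -5.11 on the other wild-type arrays) and the kidney gene Aqp2 (3.34, against -1.16 and -1.32) were high. These are single genes of their lists. The median of the epididymis markers was -5.82 there, against -5.45 and -6.51 on wild type 1 and 2. That of 8 kidney markers was -3.21, against -2.69 and -3.40. On WAT AP20187 1 no kidney marker lay above -0.44. The part of other tissues in these P450 levels was not tested.

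The array with contradictory labels lay with the WAT arrays. Where the tissues did not overlap it was on the white fat side, at 8.71 for Cyp2e1, 1.65 for Cyp2s1, 1.78 for Cyp1b1, 1.83 for Cyp2b10, 1.55 for Cyp2r1, 1.05 for Cyp4f13 and 0.24 for Cyp4f17. Cyp2f2 (4.71) and Cyp2j9 (1.75) were above every grouped array but, for Cyp2j9, WAT AP20187 2. Cyp2c37 (-0.41), Cyp2c38 (0.97), Cyp2d26 (0.37), Cyp2d11 (2.31), Cyp2d12 (-0.23) and Cyp2d22 (-1.17) fell within the WAT range. So did Cyp2j6 (0.49), Cyp2j8 (0.97), Cyp2j13 (-0.93), Cyp4b1 (3.06), Cyp4f16 (-0.03), Cyp4v3 (2.80) and Cyp4a31 (-2.36), while Cyp4a10 (-2.42) was just below it. Its 39 liver-typical genes had a mean of -2.07, with 34 detected.

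The partners of P450 enzymes were measured beside them. Of 9 redox partners 0 were called after AP20187 in either fat. Of the 9, 2 were called higher and 0 lower in BAT vehicle against WAT vehicle, beside 14.3% and 9.17% of all features. These were Fdxr (1.25 log2, SE 0.25, adjusted p = 0.008) and Fdx1 (1.57, SE 0.37, adjusted p = 0.0171), the reductase and ferredoxin that feed mitochondrial P450 enzymes. Por, which feeds the microsomal ones described here, did not pass (0.42, SE 0.34, adjusted p = 0.415), at 5.27 and 5.52 in WAT vehicle and 5.64 and 5.99 in BAT vehicle. Against wild type, 1 of the 9 was called higher in WAT with AP20187 and 0 lower, beside 7.2% and 1.66% of all features. It was Cyb5b, a cytochrome b5 of the mitochondrial outer membrane (1.18, SE 0.28, adjusted p = 0.0378). In that comparison 0 of all features were called with slide as a fixed block, with the replicate number as a block, with only the compared arrays or without any 1 of the wild-type arrays, so this call was lost there, as were those of Tef, Dbp and Gstp1 given next.

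Of 17 regulators of P450 genes 16 were tested, and 0 were called after AP20187 against vehicle. Nr1i3, which encodes CAR, had the smallest p in white fat, but it was not well above background on AP20187 1 and 2 and wild type 2, so no size of change is given. Its levels were -4.95, -4.15 and -3.90 after AP20187, -2.68 and -1.28 with vehicle and -4.73 to -4.44 in wild type. Between the tissues 3 of the 16 were called higher in BAT, all detected on every array, beside 14.3% of all features. Ppara, the fatty acid receptor, was higher by 4.85 log2 (SE 0.99, adjusted p = 0.00871), Tiparp, a target of the aryl hydrocarbon receptor, by 0.85 (SE 0.22, adjusted p = 0.0262) and Nr1d1, a clock repressor, by 2.49 (SE 0.67, adjusted p = 0.0285). Hnf4a, a hepatocyte regulator, lay at -1.08 to 2.01 in WAT and was not detected in BAT. It was the 1 regulator called lower there, and since it passed the filter only through white fat the call is not read. In WAT with AP20187 against wild type 2 of the 16 were called lower and 0 higher, beside 1.66% and 7.2% of all features. These were the clock output genes Tef (-1.53, SE 0.29, adjusted p = 0.0278) and Dbp (-1.76, SE 0.45, adjusted p = 0.0463). Against vehicle the AP20187 change of Dbp was 0.16 (SE 0.50, adjusted p = 0.863), and vehicle against wild type gave -1.92 (SE 0.50, adjusted p = 0.662).

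Of 25 enzymes of the same pathways, such as conjugating transferases, 0 were called after AP20187 against vehicle. Against wild type, 1 was called higher in WAT with AP20187 and 0 lower, beside 7.2% and 1.66% of all features. It was Gstp1, a glutathione transferase (0.60, SE 0.14, adjusted p = 0.0387). Between the vehicle groups 8 were called lower in BAT and 0 higher, beside 9.17% and 14.3% of all features. Some of the 8, Aox3 and Sult1d1 among them, were not detected on any BAT array and so passed the filter only through white fat. Their calls, and the count that holds them, are not read. Those of the 8 detected on BAT arrays included Gsta3, a glutathione transferase (-4.49, SE 0.55, adjusted p = 9.94e-04), Aldh1a1, a retinal dehydrogenase (-3.99, SE 0.56, adjusted p = 0.00173), and Fmo2, a flavin monooxygenase (-2.37, SE 0.30, adjusted p = 0.00154). Of 21 P450 genes of other families 12 were tested. After AP20187 0 of them were called. Between the vehicle groups 2 were called lower in BAT and 0 higher, beside 9.17% and 14.3% of all features. These were Ptgis, prostacyclin synthase (-3.24, SE 0.34, adjusted p = 5.61e-04), and Tbxas1, thromboxane synthase (-2.32, SE 0.65, adjusted p = 0.0327).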

How the data were processed

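RNA of 13 samples was hybridised to 1-colour Agilent arrays. The deposited scanner files give each spot's processed signal as an intensity, background-subtracted by Feature Extraction 10.7.1.1, per the file headers and the submitters' processing notes. The authors' deposited value table holds linear intensity too: at least 99.0% of its values lay within 0.1% of the processed signal. It is not on a log scale, is not centred, and leaves many spots blank.

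Control spots and outlier flags were left out, spots of a probe averaged, and log2(processed signal) minus each array's 75th percentile taken. Of 55681 probes 26056 were named through RefSeq accessions. The probe with the highest mean stood for a gene. Probes well above background on all arrays of 1 group or more were fitted over 12 arrays (24459 features) with limma 3.58.1 in R 4.3.3 (lmFit, eBayes), with Benjamini-Hochberg adjustment at 0.05 over all features. All p-values here come from that two-sided test. The number of arrays limits precision. The step was tested on simulated data.

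The text names each P450 gene detected on every array, the 10 of widest range among those detected on some (background values included), every one called, the 3 smallest p per comparison, and up to 4 genes per other list. Genes and lists were chosen with earlier results of these data known. Replicate numbers were not used to pair samples in the main fit, and the labels do not say whether same-numbered arrays share an animal. Alternatives covered scaling, background correction, dim-probe filters, probe choice, slide and replicate blocks, arrays with weak areas, and leaving out each array. Leaving out both arrays that stand apart, WAT AP20187 1 and BAT vehicle 3, was chosen after seeing the data.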

Additional observations from a re-analysis of the deposited data

Results flagged for a closer look

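The array with contradictory labels was used in no comparison, and 6 P450 genes lay higher on it than on all 7 grouped wild-type and vehicle arrays. These were Cyp2c38, at 0.97 log2 (at most 0.73 on the controls, on WAT vehicle 2), Cyp2c55, at -2.58 (at most -3.98, on WAT vehicle 2), and Cyp2f2, at 4.71 (at most 3.81, on WAT vehicle 1). The others were Cyp2j9, at 1.75 (at most 1.67, on wild type 2), Cyp2w1, at -4.18 (at most -4.64, on WAT vehicle 2), and Cyp4f18, at 2.0 (at most 1.88, on WAT vehicle 2). A single array stands behind these values, so they were not tested.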

How the results depend on the processing

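Of the 23 P450 genes detected on every array, 0 were called in WAT with AP20187 against vehicle, beside 2.24% of all features. Cyp2b10 alone was called with no filter on dim probes (14.8% of all features called) or with slide as a random block (5.66%). It was also the 1 call with probes well above background on all 12 arrays (7.74%). The 3 calls against wild type (8.87% of all features) became 0 with quantile scaling (0.45%) or the authors' value table (0.00484%). They also became 0 with only the compared arrays or slide as a fixed block (0% each). With normexp and quantile scaling (0.924%) or with scaling over detected probes (4.6%) 1 was left. With slide as a random block there were 8, where 55.1% of all features were called and the slide correlation was -0.25. Leaving out each array gave 0 to 3 calls against wild type, beside 0% to 21.8% of all features. With the replicate number as a block these calls became 0, and Cyp2d26 lost its call between the tissues (adjusted p = 0.0723). It ended no other call of a P450 gene. Of 19 same-numbered pairs 2 correlated above 0.1 (range -0.22 to 0.11). Between the tissues 9 genes were called (23.4% of all features), 6 without WAT vehicle 2 (13.4%) or BAT vehicle 2 (12.2%), 11 without WAT AP20187 1 (32.9%) or BAT vehicle 3 (20.1%), and 13 without both of the latter (31.8%). Slide as a fixed block could not be fitted there. BAT AP20187 against BAT vehicle, WAT vehicle against wild type and the difference in response had 0 calls under each alternative run. No called gene changed direction under these alternatives, but the dimmer probe of Cyp2r1, taken alone, did. With the weaker flag, positive and significant signal, 35 genes were detected on every array. The scaling over detected probes moved the median of all features from 0.15 to -0.16 in WAT AP20187 against vehicle. Genes under the background flag on a group's arrays have only a bound, and fewer spots passed it on AP20187 and BAT arrays than on other WAT arrays.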
